A study of Mus musculus with 9 samples.

Results

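A set of 10 chemokine genes of the mouse liver was followed: Cxcl1, Cxcl9, Cxcl10, Cxcl12, Cxcl13, Cxcl14, Cxcl16, Ccl6, Ccl9 and Ccl24. They were chosen by name out of the 34745 genes in the deposited table, and all 10 had enough counts to be tested among 13701 genes. RNA was sequenced from whole liver of C57BL/6 mice, with 3 libraries in each of 3 groups. The first group is labelled only as control. In both other groups thioacetamide (TAA), a hepatotoxin used to produce liver fibrosis, was supplied in water at 400 mg/L over 16 weeks. From week 13, for the last 4 weeks, 1 of these groups also received sulodexide each day and the other received its vehicle. Sulodexide is a glycosaminoglycan drug that combines a heparin fraction with dermatan sulfate. The labels do not say whether control mice were given the vehicle, so TAA and the vehicle cannot be told apart in a comparison with control. They give neither sex nor age. Nothing in them ties the libraries to different mice, so p-values here reflect only how much these samples vary, which may be technical.

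Chemokines are small secreted proteins that bind receptors on leukocytes and other cells and direct where these cells go. Most also bind heparan sulfate and related glycosaminoglycans on cell surfaces and in the matrix, which hold them near their source. In the liver they are made by hepatocytes, sinusoidal endothelium, Kupffer cells (the resident macrophages), stellate cells and bile duct cells. Cxcl1 attracts neutrophils through Cxcr2. Cxcl9 and Cxcl10 are induced by interferon gamma and attract T and NK cells through Cxcr3. Cxcl12 acts through Cxcr4 and is scavenged by Ackr3, Cxcl13 guides B cells through Cxcr5, and Cxcl16, which is made as a membrane protein, binds Cxcr6 on T and NKT cells. Cxcl14 is a tissue chemokine whose receptor is debated. Ccl6 and Ccl9 are rodent myeloid chemokines that signal through Ccr1, and Ccl24 attracts eosinophils through Ccr3.

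The libraries held 13803697 to 16655951 counts assigned to genes. The label liver was checked against markers: 6 hepatocyte genes, Alb and Ttr among them, summed to between 81900 and 118000 CPM in all 9 libraries, and the pancreatic genes Prss2 and Pnlip were at 0 in all of them. CPM, the usual count relative to library size, was scaled between libraries with the trimmed mean of M-values (TMM). Pearson correlations of log2 CPM between libraries of a group lay between 0.968 and 0.98. A gene is said to have risen or fallen where its adjusted p was below 0.05 in the quasi-likelihood test of edgeR, with Benjamini-Hochberg adjustment over all 13701 genes. In whole tissue, fewer cells of a type and less RNA per cell cannot be told apart.

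Of the 10 chemokine genes, 3 rose and 2 fell in TAA with vehicle against control, where 43.4% of all tested genes changed (23.1% higher, 20.4% lower). Cxcl14, Cxcl10 and Cxcl16 were the 3 that rose, and Cxcl12 and Ccl9 the 2 that fell. Against TAA with vehicle, TAA with sulodexide had a single change among the 10, a lower Cxcl14, and 4.8% of all tested genes changed (1.39% higher, 3.41% lower). At an unadjusted p below 0.05 there were 4 of the 10, and 20.3% of all tested genes. Against control, TAA with sulodexide had Cxcl14 higher and Cxcl12 and Ccl9 lower, where 22.6% of all tested genes changed (11.2% higher, 11.4% lower). The split over all genes depended on the scaling. With TAA and vehicle 3161 of the 5953 changed genes were higher, but 5756 of 6912 when counts were scaled to library totals. In the same way sulodexide against vehicle went from 191 of 658 to 91 of 784 higher, and sulodexide against control from 1537 of 3101 to 3315 of 4072. The 3 comparisons share libraries, so their results are not independent of each other. The median log2 fold change of the 10 genes was 0.47 in the first comparison, 0.01 in the second and 0.55 in the third, beside medians over all tested genes of 0.01, 0.02 and 0.02.

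**Figure D1:**
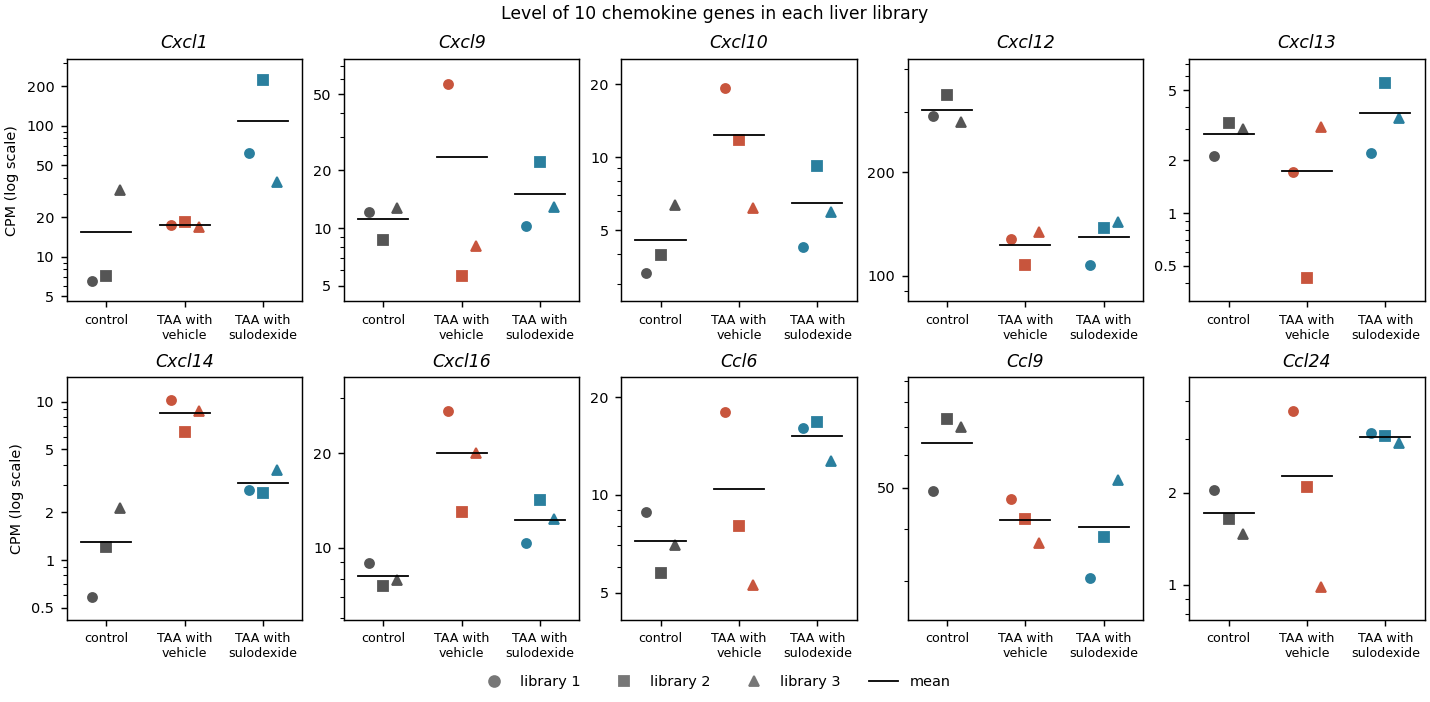
Level of each chemokine gene in each library, in CPM on a log scale with its own range in each panel, by group, with a symbol for each library number and a line at the group mean (n = 3). Cxcl12 was lower in all 6 TAA libraries than in the 3 control libraries, Cxcl14 and Cxcl16 were higher in TAA with vehicle, and Cxcl1 was highest in the 3 sulodexide libraries.

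**Figure D2:**
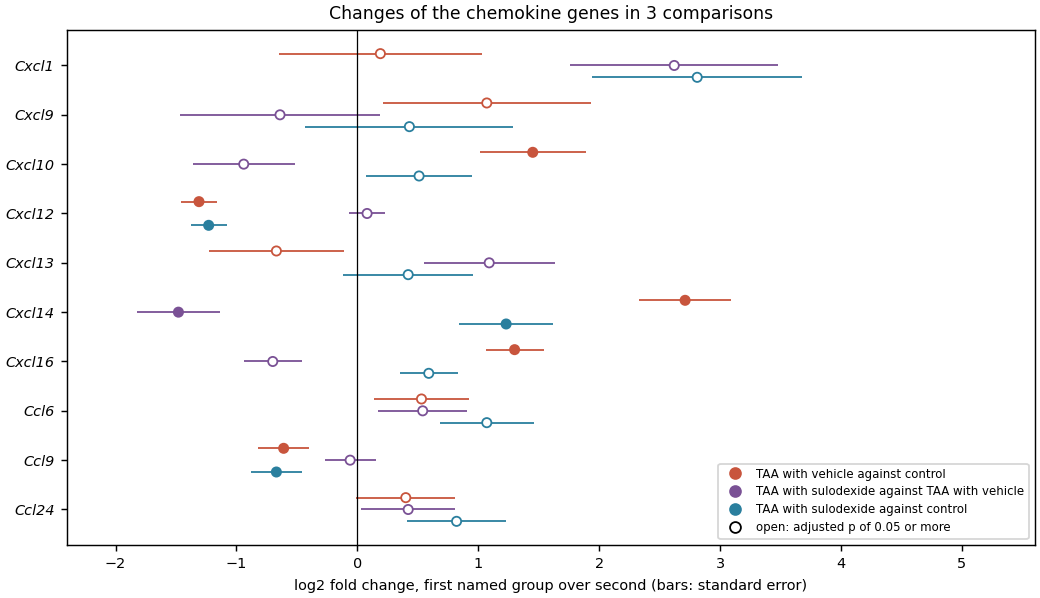
Log2 fold change of each chemokine gene in the 3 comparisons, with bars of 1 standard error and filled points where the adjusted p was below 0.05. Filled points are Cxcl10, Cxcl12, Cxcl14, Cxcl16 and Ccl9 for TAA with vehicle against control, Cxcl14 for sulodexide against vehicle, and Cxcl12, Cxcl14 and Ccl9 for sulodexide against control.

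Cxcl12, the homeostatic chemokine that keeps stem cells and lymphocytes in place, was the most abundant of the 10 in control liver and the one with the smallest adjusted p. Its gene lies at chr6:117168535-117181367 on the plus strand (GRCm38). In the control libraries it had 293, 337 and 281 CPM. In the vehicle libraries it had 128, 107 and 134 CPM, and in the sulodexide libraries 107, 138 and 143 CPM. All 6 TAA libraries lay below all 3 control libraries, and both TAA groups overlapped with each other. Cxcl12 fell by 1.31 on the log2 scale with TAA and vehicle (SE 0.15, edgeR adjusted p = 6.93e-05), to a level 2.47-fold below control. With sulodexide it was lower than control by a log2 fold change of -1.23 (SE 0.15, edgeR adjusted p = 0.000267). The sulodexide and vehicle groups differed by 0.08 on the log2 scale (SE 0.15, edgeR adjusted p = 0.822), and its sign was negative when libraries were scaled by total counts.

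Cell type markers were set beside this fall. The 7 sinusoidal endothelium markers summed to 287 to 352 CPM in control, 225 to 286 in TAA with vehicle and 272 to 362 in TAA with sulodexide, and 2 of the 7 fell with TAA. The 10 markers of stellate cells and fibroblasts, another source of Cxcl12, summed to 215 to 252 CPM in control, 527 to 834 with vehicle and 334 to 369 with sulodexide, and 9 of the 10 rose with TAA. With sulodexide 4 of those 10 were higher than in control. Of the 6 hepatocyte markers, 4 fell with TAA and vehicle and 4 were lower with sulodexide than in control. Between sulodexide and vehicle 0 of the 6 changed. Of all tested genes, 23.1% rose and 20.4% fell with TAA and vehicle. Against control 11.2% were higher and 11.4% lower with sulodexide, and 4.8% changed between sulodexide and vehicle. The summed hepatocyte markers of the 3 groups overlapped. The part of cell makeup in the fall of Cxcl12 was not tested.

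The promoter of Cxcl12 is shown for the GC boxes it holds. The 250 bases before the RefSeq start of the gene (GRCm38.p6, chr6:117168285-117168534, plus strand) were read in the direction of transcription. Capitals mark the letters CCGCCC on either strand, the core of a GC box.
Cxcl12 promoter: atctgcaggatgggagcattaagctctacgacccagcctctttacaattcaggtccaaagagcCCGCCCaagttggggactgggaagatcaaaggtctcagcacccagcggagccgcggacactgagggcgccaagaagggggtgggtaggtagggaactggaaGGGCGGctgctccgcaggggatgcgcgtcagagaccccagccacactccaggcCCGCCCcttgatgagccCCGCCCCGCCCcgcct
It held 5 such matches, of which a pair overlaps in the run CCGCCCCGCCC near the start, and 32.7% of 32851 mouse promoters of the same length held at least 1. Its GC content was 64.4% with 14 CG dinucleotides, beside medians of 52.4% and 6 over all promoters, and 59.6% and 16 in the promoter of Cxcl14. The motifs searched in all promoters printed here, each on both strands, were the NF-kappaB pattern (GGG and TTCC with 3 bases of any kind between them) and the interferon-stimulated response element (GAAA and GAAA with 2 bases between them). Searched as well were TTCNNNGAA (the gamma-activated site bound by STAT proteins), TGANTCA (AP-1), TATAAA and CCGCCC. None of the other 5 had a match in this window. A match is a description of letters, and binding was not measured.

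The genes whose pattern over the 9 libraries was most like Cxcl12 were Selo, Mmp19 and Pts. Likeness was the root mean square difference of log2 CPM after each gene was centred on its own mean, over genes of at least 5 CPM on average, and it was 0.133, 0.137 and 0.138 for these 3 genes. Pts makes the tetrahydrobiopterin precursor and Mmp19 is a matrix metalloproteinase. Pts had 25.3, 29.1 and 26.3 CPM in control and 10.4 to 15.7 CPM in the 6 TAA libraries. All 3 fell with TAA and vehicle, by 1.2, 1.18 and 1.18 on the log2 scale for Selo, Mmp19 and Pts (edgeR adjusted p at most 0.000109). Genes named for likeness, here and below, were picked by their pattern over these same libraries. That they share it follows from the choice and says nothing more about the chemokine gene.

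Of the receptors of Cxcl12, both rose with TAA and vehicle. Cxcr4, the signalling receptor on leukocytes, had 0.363, 1.38 and 1.06 CPM in control, 9.25, 3.07 and 4.06 CPM with vehicle, and 1.95, 2.9 and 1.38 CPM with sulodexide. The vehicle libraries lay above all control libraries, and the highest control library equalled the lowest sulodexide library at 3 digits. The log2 fold change with TAA and vehicle was 2.57 (SE 0.54, edgeR adjusted p = 0.00327). Ackr3, the scavenging receptor, was below 1 CPM in control and had 2.8, 2.09 and 1.63 CPM with vehicle. It rose by 2.62 on the log2 scale (SE 0.64, edgeR adjusted p = 0.00711). Sulodexide against vehicle did not pass for either, with edgeR adjusted p = 0.134 for Cxcr4 and 0.221 for Ackr3. With TAA and vehicle the ligand was lower and both receptors were higher than in control.

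Proteases that cut chemokines, and can shorten or inactivate them, were examined as well. Dpp4, which trims the amino end of many chemokines including Cxcl12 and Cxcl10, had 111, 117 and 128 CPM in control, 36.8, 34.1 and 28.8 CPM with vehicle, and 51.2, 50.4 and 51.3 CPM with sulodexide. The 3 groups did not overlap. Dpp4 fell by 1.83 on the log2 scale with TAA and vehicle (SE 0.12, edgeR adjusted p = 2.94e-06) and was higher with sulodexide than with vehicle by 0.62 (SE 0.12, edgeR adjusted p = 0.0179, or 0.06 when scaled to library totals, 0.0518 with only these groups fitted, and 0.0706 and 0.0638 without vehicle library 3 and sulodexide library 2). The gelatinase Mmp2 went the other way, with 1.53 to 1.98 CPM in control, 41.4, 20.8 and 60.9 CPM with vehicle and 7.34, 4.29 and 4.61 CPM with sulodexide. Mmp2 rose by 4.58 with TAA and vehicle (edgeR adjusted p = 4.14e-05) and was lower with sulodexide than with vehicle by a log2 fold change of -2.92 (SE 0.37, edgeR adjusted p = 0.00735). Of the 8 tested proteases, 4 rose and 1 fell with TAA and vehicle, beside 23.1% and 20.4% of all tested genes. Mmp9 and Mmp12, of neutrophils and macrophages, rose by 3.0 and 3.9 on the log2 scale. The fifth to pass was Mmp14, named after its values were seen, which rose by 0.62 (edgeR adjusted p = 0.0339). It missed the threshold in 5 of the 6 cases with a library left out (0.0711 to 0.137) and passed without vehicle library 2.

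Cxcl14 was the single member that passed the test in all 3 comparisons. It is made by epithelia, fibroblasts and other stromal cells, and its gene lies at chr13:56288647-56296551 on the minus strand (GRCm38). In control it was the least abundant of the 10, with 0.582, 1.21 and 2.12 CPM, which are 8, 14 and 26 counts. The vehicle libraries had 10.3, 6.45 and 8.76 CPM and the sulodexide libraries 2.78, 2.67 and 3.69 CPM. The 3 groups did not overlap, with sulodexide between control and vehicle. Cxcl14 rose by 2.71 on the log2 scale with TAA and vehicle (SE 0.38, edgeR adjusted p = 0.000246), which is 6.55-fold. With sulodexide it was lower than with vehicle by a log2 fold change of -1.48 (SE 0.34, edgeR adjusted p = 0.0322) and higher than in control by 1.23 (SE 0.39, edgeR adjusted p = 0.0416).

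The differences of the sulodexide group were sensitive to single libraries. When vehicle library 1 was left out the log2 fold change was -1.32 with an edgeR adjusted p of 0.113, and it was above 0.05 in 5 of the 6 cases in which a library of these groups was left out (0.113, 0.0978, 0.0877, 0.113 and 0.0591 without vehicle 1, vehicle 3, sulodexide 1, sulodexide 2 and sulodexide 3). Without vehicle library 2 it was 0.0227, and over these 6 cases the log2 fold change stayed negative. Against control the sulodexide group missed the threshold in 5 of its 6 cases, with edgeR adjusted p = 0.0627 to 0.127 and log2 fold changes of 0.85 to 1.32, and passed without control library 3 (1.77, adjusted p = 0.0158). The change against control with TAA and vehicle passed in each of its 6 cases.

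Markers of several cell types are set beside Cxcl14, which had its groups in the order control, sulodexide, vehicle. The stellate and fibroblast markers are given above, and 6 of those 10 were lower with sulodexide than with vehicle, beside 3.41% of all tested genes. The 6 bile duct cell (cholangiocyte) markers, Krt7 and Krt19 among them, summed to 33.1 to 47.5 CPM in control, 494, 204 and 465 CPM with vehicle and 42.1 to 107 CPM with sulodexide. All 6 rose with TAA and vehicle, beside 23.1% of all tested genes, and all 6 were lower with sulodexide than with vehicle, beside 3.41%. The mean sums of the monocyte, neutrophil, eosinophil, T and NK cell and mesothelial markers lay in the same order of groups. The part of these markers in the values of Cxcl14 was not tested.

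The genes most like Cxcl14 over the 9 libraries were Ltbp1, Fstl1 and Dkk3, which encode secreted proteins, at root mean square differences of 0.378, 0.393 and 0.404. Fstl1 had 3.62 to 4.57 CPM in control, 31.4, 20.6 and 35.6 CPM with vehicle and 6.67 to 8.55 CPM with sulodexide. Its log2 fold change between sulodexide and vehicle was -1.89 (SE 0.21, edgeR adjusted p = 0.00532). Ltbp1 and Dkk3 were lower with sulodexide than with vehicle as well, with edgeR adjusted p = 0.0164 and 0.0214.

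The promoter of Cxcl14 is shown for the interferon and STAT patterns it holds. It covers chr13:56296552-56296801 (GRCm38.p6, minus strand, RefSeq), and capitals mark TTCTGAGAA, which fits TTCNNNGAA, and GAAACAGAAA, which fits the interferon-stimulated response element.
Cxcl14 promoter: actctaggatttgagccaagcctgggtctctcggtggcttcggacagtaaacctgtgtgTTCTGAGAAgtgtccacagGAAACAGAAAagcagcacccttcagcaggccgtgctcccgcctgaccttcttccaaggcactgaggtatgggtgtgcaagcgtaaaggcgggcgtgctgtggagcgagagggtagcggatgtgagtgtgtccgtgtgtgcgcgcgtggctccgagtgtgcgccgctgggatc
The first begins 191 bases and the second 172 bases before the start. Of all promoters of this length, 7.02% held the former pattern and 2.98% the latter.

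Cxcl1, an inducible chemokine, was highest in the sulodexide group and varied widely between libraries. Its gene lies at chr5:90891241-90893115 on the plus strand. The control libraries had 6.54, 7.15 and 32.5 CPM, the vehicle libraries 17.3, 18.5 and 16.8 CPM, and the sulodexide libraries 61.8, 225 and 37.3 CPM. All 3 sulodexide libraries lay above all other libraries, while control library 3 lay above the vehicle libraries. The vehicle libraries were within an SD of 0.071 on the log2 scale, and the SD was 1.29 in control and 1.33 with sulodexide. Over the 3 groups 98.8% of tested genes had a smaller spread than Cxcl1.

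Cxcl1 did not pass the test in any comparison with edgeR. Its log2 fold change was 0.19 with TAA and vehicle (SE 0.84, edgeR adjusted p = 0.876). For sulodexide against vehicle it was 2.62 (SE 0.86, edgeR adjusted p = 0.147), a 6.16-fold difference of the means, and DESeq2 gave an adjusted p of 0.0335 for the same libraries. Against control the log2 fold change with sulodexide was 2.81 (SE 0.87, edgeR adjusted p = 0.0585, DESeq2 adjusted p = 0.00702), and edgeR gave 0.0248 without control library 3. Without sulodexide library 2 the log2 fold change against vehicle was 1.5 (edgeR adjusted p = 0.32).

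The promoter of Cxcl1 is shown for the pattern bound by NF-kappaB, the factor of inflammatory signalling. It covers chr5:90890995-90891244 (GRCm38.p6, plus strand, RefSeq), and capitals mark letters that fit it on either strand.
Cxcl1 promoter: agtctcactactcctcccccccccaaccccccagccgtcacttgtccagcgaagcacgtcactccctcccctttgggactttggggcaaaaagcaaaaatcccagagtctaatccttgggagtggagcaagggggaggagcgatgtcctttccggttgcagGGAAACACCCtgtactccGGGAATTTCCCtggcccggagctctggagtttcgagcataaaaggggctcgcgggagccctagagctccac
There were 3 matches, GGAAACACCC at 89 bases before the start and GGGAATTTCC and GGAATTTCCC, which overlap, at 71 and 70 bases. Of all promoters of this length, 4.65% held the pattern.

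The 3 genes nearest to Cxcl1 over the 9 libraries were the serum amyloid A genes Saa2, Saa1 and Saa3, which encode acute phase proteins, at root mean square differences of 0.716, 0.814 and 0.911. These paralogs are similar in sequence, so their counts are uncertain. Saa2 had 14.6, 22.2 and 61.1 CPM in control, 41, 16.6 and 30 CPM with vehicle, and 229, 351 and 207 CPM with sulodexide. Saa1 had 42.9, 70 and 158 CPM in control, 38.2 to 63.1 CPM with vehicle and 271, 490 and 430 CPM with sulodexide. In both genes the sulodexide libraries lay above all others and control library 3 was the highest of its group, as in Cxcl1. They were picked for this likeness, so their tests do not bear on the change of Cxcl1. Saa2 was higher with sulodexide than with vehicle by 3.16 on the log2 scale (SE 0.59, edgeR adjusted p = 0.0276) and Saa1 by 2.92 (SE 0.49, edgeR adjusted p = 0.0182). Saa3 had 4.94, 6.28 and 11.3 CPM in control, 19.3, 13.9 and 19.3 CPM with vehicle and 17.8, 38.8 and 33.6 CPM with sulodexide. It was already higher with TAA and vehicle, by 1.22 on the log2 scale (SE 0.35, edgeR adjusted p = 0.018), and between sulodexide and vehicle its libraries overlapped and the log2 fold change of 0.78 did not pass (SE 0.33, edgeR adjusted p = 0.22).

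Cxcr2, the neutrophil receptor of Cxcl1, had 2, 0 and 1 counts in the control libraries, 45, 4 and 11 with vehicle and 13, 19 and 7 with sulodexide. The rate with TAA and vehicle was 14.4 times that of control (95% counting interval 4.71 to 72). Its rise had an edgeR adjusted p of 0.0152, and of 0.0711 without vehicle library 1 and 0.0533 without control library 2. The 7 neutrophil markers summed to 2.25 to 3.1 CPM in control, 53, 10.7 and 13.8 CPM with vehicle and 7.11 to 16.1 CPM with sulodexide. Sulodexide libraries 1, 2 and 3 had 11.3, 16.1 and 7.11 CPM of these markers and 61.8, 225 and 37.3 CPM of Cxcl1, in the same order. Vehicle library 1, the highest in the markers, had 17.3 CPM of Cxcl1. The part of these markers in the values of Cxcl1 was not tested.

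Of the 19 tested genes of the NF-kappaB and interleukin 1 pathway, which induces Cxcl1, 8 rose and 2 fell with TAA and vehicle, beside 23.1% and 20.4% of all tested genes. Scaled to library totals 14 rose and 1 fell, and with limma on FPKM 13 rose and 1 fell. Icam1, the leukocyte adhesion molecule, rose by 1.67 on the log2 scale (SE 0.19, edgeR adjusted p = 7.17e-05). Relb, an NF-kappaB subunit, rose by 2.2 (SE 0.28, edgeR adjusted p = 0.00015) and Il1rn, the interleukin 1 antagonist, by 2.16 (SE 0.35, edgeR adjusted p = 0.000657). Il1rap, the shared interleukin 1 receptor subunit, had 145, 167 and 171 CPM in control, 31.7, 37.5 and 29.1 CPM with vehicle, and 55.9, 69.2 and 60.2 CPM with sulodexide. The 3 groups did not overlap for Il1rap, which fell by 2.3 with TAA and vehicle (SE 0.14, edgeR adjusted p = 1.9e-06). With edgeR it was the single gene of the list to change between sulodexide and vehicle, higher by 0.91 (SE 0.14, edgeR adjusted p = 0.0087). Against control, TAA with sulodexide had 8 genes of the list higher and 2 lower, beside 11.2% and 11.4% of all tested genes. Icam1 and Relb were among the higher, and Il1rap and Ikbkb, a kinase subunit, among the lower (Ikbkb had an adjusted p of 0.0627 with limma on FPKM).

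Cxcl9 and Cxcl10, the interferon-induced ligands of Cxcr3, lie next to each other on chromosome 5, both on the minus strand, with a gap of 18.558 kb. The coding gene Art3, on the plus strand, reaches into this gap and spans the whole of Cxcl10. Cxcl10 (chr5:92346638-92348889) had 3.34, 3.96 and 6.37 CPM in control, 19.4, 11.8 and 6.15 CPM with vehicle and 4.26, 9.22 and 5.92 CPM with sulodexide. Vehicle libraries 1 and 2 lay above all others, and vehicle library 3 lay within the control range. Cxcl10 rose by 1.45 on the log2 scale with TAA and vehicle (SE 0.44, edgeR adjusted p = 0.0224). Without vehicle library 1 the log2 fold change was 0.98 with an edgeR adjusted p of 0.0805, and the adjusted p was 0.0884 without control library 1 and 0.0783 without control library 2. Sulodexide against vehicle gave -0.94 (SE 0.42, edgeR adjusted p = 0.245). Cxcl10 overlaps Art3 on the opposite strand over 133 of its 2252 exon bases, and since the strand setting of the counting is not given in the sources used here, reads of both cannot be told apart there. Art3 had 14 to 66 counts in a library.

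Cxcl9 (chr5:92321347-92328079) had 12.1, 8.7 and 12.7 CPM in control, 56.6, 5.59 and 8.01 CPM with vehicle and 10.3, 22.2 and 12.8 CPM with sulodexide. Vehicle library 1 was the highest of the 9, 2.55 times the next, while the other vehicle libraries were the lowest of the 9. The log2 fold change with TAA and vehicle was 1.07 (SE 0.86, edgeR adjusted p = 0.352) and -0.72 without vehicle library 1. Its spread within groups was wider than in 99.0% of tested genes, with an SD of 1.78 on the log2 scale in the vehicle group. The ratio of Cxcl9 to Cxcl10 was 2.0 to 3.63 in the control libraries and 2.16 to 2.42 in the sulodexide libraries, and 2.92, 0.474 and 1.3 in the vehicle libraries.

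Both promoters are shown because the neighbours differ in the motifs they hold. They cover chr5:92328080-92328329 and chr5:92348890-92349139 (GRCm38.p6, minus strand, RefSeq). Capitals mark TATAAA in Cxcl9, and in Cxcl10 GAAAGTGAAA (the interferon-stimulated response element), GGGAAATTCC and GGGGACTTCC (the NF-kappaB pattern), and TGAGTCA (AP-1).
Cxcl9 promoter: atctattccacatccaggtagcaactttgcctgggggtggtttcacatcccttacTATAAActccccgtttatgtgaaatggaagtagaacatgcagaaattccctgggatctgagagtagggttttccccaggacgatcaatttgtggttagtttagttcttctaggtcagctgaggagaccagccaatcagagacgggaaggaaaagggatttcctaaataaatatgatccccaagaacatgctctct
Cxcl10 promoter: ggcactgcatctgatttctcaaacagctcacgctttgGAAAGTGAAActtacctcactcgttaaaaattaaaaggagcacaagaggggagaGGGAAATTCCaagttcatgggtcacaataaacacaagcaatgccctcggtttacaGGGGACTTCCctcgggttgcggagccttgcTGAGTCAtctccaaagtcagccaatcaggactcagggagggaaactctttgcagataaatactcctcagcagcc
In the window of Cxcl10 these matches begin 213, 159, 104 and 74 bases before the start. The match in Cxcl9 begins 195 bases before it, and the other 5 patterns had none there. TGANTCA occurred in 6.75% and TATAAA in 12.4% of all promoters of this length.

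Genes with the pattern most like Cxcl9 were Gbp3 and Gbp2, interferon-induced GTPases, and Mpeg1, a macrophage pore protein, at root mean square differences of 0.377, 0.415 and 0.472. Gbp2 had 38.9 CPM in vehicle library 1 and 2.84 to 8.99 CPM in the other 8 libraries. Those most like Cxcl10 were Fam89b, the adhesion receptor Cd44 and the heme oxygenase Hmox1, at 0.358, 0.363 and 0.368, and of these Cd44 (edgeR adjusted p = 0.00846) and Hmox1 (0.00137) rose with TAA and vehicle.

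Cxcr3, the shared receptor on T and NK cells, had 0.436, 0.689 and 0.653 CPM in control, 3.01, 1.35 and 2.26 CPM with vehicle and 1.13, 1.57 and 1.38 CPM with sulodexide. All TAA libraries lay above all control libraries. It rose by 1.9 on the log2 scale with TAA and vehicle (SE 0.41, edgeR adjusted p = 0.00329), and against control the sulodexide group had an edgeR adjusted p of 0.0611. The 9 T and NK cell markers summed to 6.54 to 8.09 CPM in control, 41.4, 10.6 and 20.7 CPM with vehicle and 11.3 to 19.5 CPM with sulodexide. Of 8 tested markers, 6 were higher with TAA and vehicle, beside 23.1% of all tested genes. Vehicle library 1 was the highest of the 9 in these markers, as it was in Cxcl9 and Cxcl10. It was also the highest of the 9 in the monocyte, neutrophil, eosinophil and bile duct cell markers. The part of these markers in the values of both ligands was not tested.

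Of the 14 tested genes of the interferon gamma axis, 4 rose and 0 fell with TAA and vehicle, beside 23.1% and 20.4% of all tested genes. These were both receptor subunits, Ifngr1 by 1.05 (SE 0.2, edgeR adjusted p = 0.0018) and Ifngr2 by 0.52 (SE 0.14, edgeR adjusted p = 0.0126), the class II regulator Ciita by 2.87 (SE 0.64, edgeR adjusted p = 0.00472) and the macrophage factor Irf8 by 0.71 (SE 0.26, edgeR adjusted p = 0.044). Ifngr2 missed the threshold without vehicle library 1 (0.0576) and without control library 1 (0.0585). The Irf8 call was lost with the replicate block (0.0801) and in 5 of the 6 cases with a library left out (0.0688 to 0.201), and held without vehicle library 2. In sulodexide against vehicle 0 of the 14 passed with edgeR, 0 with DESeq2 and 0 at an unadjusted p below 0.05. Against control, Ifngr1 and Ifngr2 were higher with sulodexide with edgeR, and 4 genes of the list with DESeq2. That call of Ifngr1 (0.62, edgeR adjusted p = 0.0468) was lost with RLE factors (0.0513) and in each of the 6 cases with a library left out (0.0719 to 0.146), and that of Ifngr2 without control library 1 (0.0585). Cxcl11, the other ligand of Cxcr3, fell by 1.51 with TAA and vehicle (SE 0.31, edgeR adjusted p = 0.0027), from 2.78 to 4.36 CPM in control to 0.987 to 1.51 CPM. It overlaps Art3 too.

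**Figure D3:**
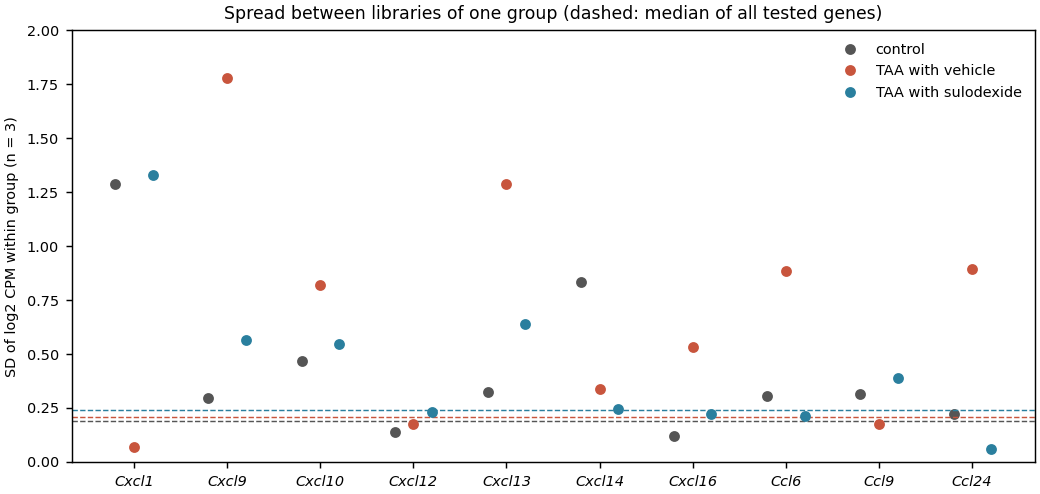
Standard deviation of log2 CPM between the 3 libraries of each group for each chemokine gene, with dashed lines at the median of all tested genes in each group. Cxcl9 had the widest spread in the vehicle group (1.78) and Cxcl1 in the control and sulodexide groups (1.29 and 1.33), while Cxcl12 stayed near the dashed lines.

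Cxcl16 (chr11:70453983-70459984, minus strand), the membrane chemokine that also acts as a scavenger receptor, had 8.94, 7.58 and 7.92 CPM in control. The vehicle libraries had 27.2, 13 and 20 CPM and the sulodexide libraries 10.4, 14.2 and 12.4 CPM. All TAA libraries lay above all control libraries, and both TAA groups overlapped. Cxcl16 rose by 1.3 on the log2 scale with TAA and vehicle (SE 0.24, edgeR adjusted p = 0.00161) and passed in each of the 6 cases with a library left out. Its log2 fold change between sulodexide and vehicle was -0.7 (SE 0.24, edgeR adjusted p = 0.119), and without vehicle library 2 it was -0.94 with an adjusted p of 0.0164. Cxcl16 shares 552 of its 3021 exon bases with Zmynd15 on the opposite strand, which had 48 to 108 counts in a library beside 88 to 506 counts of Cxcl16.

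The gene nearest to Cxcl16 was Msn, which encodes the membrane linker moesin, at a root mean square difference of 0.107, followed by Dmpk and Oxct1 at 0.142 and 0.144. Msn had 23.4 to 27.5 CPM in control, 71.9, 36.4 and 55.8 CPM with vehicle and 33.9 to 44.4 CPM with sulodexide. Cxcr6, the receptor of Cxcl16, had 10, 10 and 2 counts in control, 53, 9 and 22 with vehicle and 16, 26 and 8 with sulodexide. Its log2 fold change of 1.42 with TAA and vehicle did not pass (edgeR adjusted p = 0.117), and without vehicle library 2 the adjusted p was 0.0418. Cxcr6 overlaps Fyco1 in the annotation, so its counts are uncertain. Of the monocyte and macrophage markers, Itgam was left out because 2 gene identifiers share its symbol. The other 7, Trem2 and Gpnmb among them, summed to 49.2 to 55.6 CPM in control, 319, 104 and 138 CPM with vehicle and 72.7 to 151 CPM with sulodexide. Vehicle library 1 was the highest and vehicle library 2 the lowest of its group for these markers, as for Cxcl16. The same order held for the Kupffer cell, neutrophil, eosinophil, T and NK cell, sinusoidal endothelium and bile duct cell markers. It did not hold for the hepatocyte, stellate cell or mesothelial markers. The part of any of these markers in the values of Cxcl16 was not tested.

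Ccl9 and Ccl6 are neighbours on chromosome 11, minus strand, with a gap of 9.245 kb and 0 other coding genes between them. Ccl9 (chr11:83572919-83578636) had 49.1, 73.2 and 69.9 CPM in control, 47.1, 42.2 and 36.9 CPM with vehicle and 30.4, 38.2 and 52.2 CPM with sulodexide. The vehicle libraries lay just below the control libraries, and sulodexide library 3 lay within the control range. Ccl9 fell by 0.61 on the log2 scale with TAA and vehicle (SE 0.21, edgeR adjusted p = 0.0351) and was lower with sulodexide than in control by a log2 fold change of -0.67 (SE 0.21, edgeR adjusted p = 0.0402). These calls depended on the scaling: with total counts, under which the median log2 fold change of all genes was 0.41 and 0.27 in these comparisons beside 0.01 and 0.02 with TMM, the changes were -0.19 and -0.41 with edgeR adjusted p = 0.446 and 0.148. Each call was also lost in 4 of the 6 cases with a library left out: with vehicle without control libraries 2 and 3 and vehicle libraries 2 and 3 (0.0723 to 0.114), and with sulodexide without control libraries 2 and 3 and sulodexide libraries 1 and 2 (0.108 to 0.13).

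Ccl6 (chr11:83587882-83593087) had 8.87, 5.77 and 7.02 CPM in control, 18, 8.05 and 5.28 CPM with vehicle and 16.1, 16.7 and 12.7 CPM with sulodexide. All 3 sulodexide libraries lay above all control libraries, and the vehicle libraries spanned both. The log2 fold change of sulodexide against control was 1.07 (SE 0.39) and missed the threshold with edgeR (adjusted p = 0.0746), with 0.0276 by DESeq2 and 0.00583 when only the 2 groups compared were fitted. With TAA and vehicle it was 0.53 (SE 0.39, edgeR adjusted p = 0.296), and -0.12 without vehicle library 1. The genes most like Ccl6 were Trpm2, the Kupffer and macrophage lectin Siglec1, and Pla2g7, at root mean square differences of 0.317, 0.318 and 0.34. Those most like Ccl9 were Appl2, Fdx1 and S100a16, at 0.113, 0.117 and 0.122, and Appl2 and Fdx1 fell with TAA and vehicle (edgeR adjusted p = 0.00864 and 0.00751).

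Ccl24 (chr5:135569937-135573049, minus strand), known as eotaxin-2 and made by macrophages, had 2.04, 1.64 and 1.47 CPM in control, 3.71, 2.09 and 0.987 CPM with vehicle and 3.14, 3.07 and 2.9 CPM with sulodexide. The sulodexide libraries, within an SD of 0.0579 on the log2 scale, lay above all control libraries, while the vehicle libraries spread on both sides. The log2 fold change of sulodexide against control was 0.82 (SE 0.41, edgeR adjusted p = 0.172), and with TAA and vehicle it was 0.4 (SE 0.41, edgeR adjusted p = 0.461) and -0.16 without vehicle library 1. Among genes of at least 5 CPM on average the nearest to Ccl24 was Ccl6, at a root mean square difference of 0.199, then Ifi203 and Rcc1 at 0.322 and 0.327.

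The 6 Kupffer cell markers, Clec4f and Vsig4 among them, summed to 149 to 170 CPM in control, 321, 209 and 214 CPM with vehicle and 209, 461 and 321 CPM with sulodexide. Of these, 1 rose with TAA and vehicle, beside 23.1% of all tested genes. With sulodexide 4 were higher than in control, beside 11.2% of all tested genes. Sulodexide library 2, the highest in these markers, was also the highest of its group in Cxcl1, Cxcl9, Cxcl10, Cxcl13, Cxcl16 and Ccl6. For Ccl6 the lead was small, with 16.7 CPM beside 16.1 CPM in sulodexide library 1. This library 2 was also the highest of its group in the monocyte, neutrophil, T and NK cell, sinusoidal endothelium and mesothelial markers. Ccl24 had 53, 53 and 44 counts in sulodexide libraries 1, 2 and 3, which are too close to rank these libraries. The part of these markers in the levels of Ccl6 and Ccl24 was not tested.

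Receptors of the CC members were rare. Ccr1, the receptor of Ccl6 and Ccl9 on neutrophils and monocytes, had 1, 0 and 2 counts in control, 32, 4 and 11 with vehicle and 10, 15 and 3 with sulodexide. The rate with TAA and vehicle was 11.3 times that of control (95% counting interval 3.64 to 56.8), with an edgeR adjusted p of 0.0208, and of 0.0981, 0.0694 and 0.0692 without vehicle library 1, control library 1 and control library 2. Ccr3, the eosinophil receptor of Ccl24, had 0 to 3 counts in a library and was not tested. The 5 eosinophil markers, Ccr3 included, summed to at most 0.699 CPM in any library. Of 6 tested genes of the type 2 response, which accompanies Ccl24 in other settings, 1 rose and 2 fell with TAA and vehicle. Of all tested genes 23.1% rose and 20.4% fell. By DESeq2 the counts were 2 and 2. Scaled to library totals they were 3 and 1, where 5756 of all 13701 tested genes rose. Il4ra, the interleukin 4 receptor, rose by 0.76 on the log2 scale (edgeR adjusted p = 0.00297). Arg1, the urea cycle enzyme that hepatocytes also make, fell by 0.92 (edgeR adjusted p = 0.00164), and Il13ra1 fell by 0.66 (edgeR adjusted p = 0.00809, or 0.257 when scaled to library totals).

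Cxcl13 (chr5:95956951-95961068, plus strand), the B cell chemokine of lymphoid follicles, had 2.11, 3.27 and 3.02 CPM in control, 1.72, 0.43 and 3.08 CPM with vehicle and 2.19, 5.51 and 3.49 CPM with sulodexide. The 3 groups overlapped, and the lowest value, in vehicle library 2, came from 7 counts. No comparison passed: the log2 fold change was -0.67 with TAA and vehicle (SE 0.56, edgeR adjusted p = 0.356) and 1.09 between sulodexide and vehicle (SE 0.54, edgeR adjusted p = 0.295). The genes most like it were the non-coding Snhg8 and the respiratory chain subunits Ndufs6 and Ndufa3, at root mean square differences of 0.503, 0.557 and 0.571.

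Cxcr5, the receptor of Cxcl13, had 0 to 4 counts in the control libraries, 10, 9 and 11 with vehicle and 3, 10 and 2 with sulodexide, and was not tested. It overlaps Bcl9l in the annotation, so its counts are uncertain. Ltb, the lymphotoxin subunit that induces Cxcl13 in lymphoid tissue, rose with TAA and vehicle by 4.23 on the log2 scale (SE 0.79, edgeR adjusted p = 0.00207), Map3k14 by 1.07, Ccr7 by 2.53 and Ltbr by 0.29. The Ltbr call (edgeR adjusted p = 0.0432) was lost with no filter (0.0884), with the replicate block (0.0564) and in each of the 6 cases with a library left out (0.0575 to 0.151). Map3k14 and Ccr7 missed the threshold without control library 2 (edgeR adjusted p = 0.0535 and 0.0612).

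Over all cognate receptors, 5 of the 6 tested rose and 0 fell with TAA and vehicle, beside 23.1% and 20.4% of all tested genes. Between sulodexide and vehicle 0 of the 6 passed with edgeR or DESeq2. At an unadjusted p below 0.05, 2 were lower, where 20.3% of all tested genes changed in either direction. Between sulodexide and control 0 passed with edgeR and 1 with DESeq2. At an unadjusted p below 0.05, 3 were higher, where 36.9% of all tested genes changed in either direction. Among 7 tested receptors of other chemokines, Cx3cr1, Ccr7 and Ccr2 rose with TAA and vehicle, beside 23.1% of all tested genes. Scaled to library totals 6 of the 7 were higher, beside 5756 of all 13701 tested genes. The Ccr2 call (1.34, edgeR adjusted p = 0.0347) was lost with the replicate block (0.0558), without any 1 control library (0.0675 to 0.113) and without vehicle library 1 (0.68, adjusted p = 0.2). Cx3cr1, the fractalkine receptor of monocytes, had 0.245 to 0.727 CPM in control, 10.6, 3.81 and 6.15 CPM with vehicle and 1.89, 1.16 and 2.3 CPM with sulodexide. It rose by 3.91 on the log2 scale (SE 0.51, edgeR adjusted p = 0.000174) and was lower with sulodexide than with vehicle by a log2 fold change of -1.94 (SE 0.42, edgeR adjusted p = 0.0258). That call was lost in 5 of the 6 cases with a library left out (0.0542 to 0.0996), and held without vehicle library 2. Cx3cr1 overlaps 8 other genes in the annotation, so its counts are uncertain.

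Of 28 other chemokine ligands, Ccl21a and Ccl27a were left out because several gene identifiers share each symbol. The remaining 26 were mostly too low to test, with 7 tested. Of these 4 rose with TAA and vehicle (Cx3cl1, Ccl22, Ccl2 and Ccl5, the last named after its values were seen) and 1 fell (Cxcl11). Of all tested genes 23.1% rose and 20.4% fell. Cx3cl1, or fractalkine, had 0.8, 0.517 and 1.06 CPM in control, 17.3, 5.16 and 17.1 CPM with vehicle and 2.84, 1.33 and 1.58 CPM with sulodexide. Like Cxcl14 it had its 3 groups apart, with a rise of 4.04 on the log2 scale with TAA and vehicle (SE 0.54, edgeR adjusted p = 0.000256). It was lower with sulodexide than with vehicle by a log2 fold change of -2.77 (SE 0.47, edgeR adjusted p = 0.0132, but 0.0502, 0.0636 and 0.0542 without vehicle library 3, sulodexide library 2 and sulodexide library 3). The monocyte chemokine Ccl2 rose by 3.0 on the log2 scale (SE 0.7, edgeR adjusted p = 0.00563). Ccl22, a macrophage and dendritic cell product, had 1 count over the control libraries and 51 over the vehicle libraries, a rate ratio of 36.8 (95% counting interval 6.32 to 1480). Against control, TAA with sulodexide had Ccl22, Ccl2, Ccl25 and Ccl5 higher, beside 11.2% of all tested genes. The Ccl5 call (edgeR adjusted p = 0.0492) was lost with RLE factors (0.0505), no filter (0.115), the replicate block (0.0871) and in each of the 6 cases with a library left out (0.094 to 0.151). Ccl22 and Ccl2 each missed the threshold in 3 of the 6 cases: Ccl22 without control libraries 1 and 3 and sulodexide library 1 (0.0567 to 0.066), and Ccl2 without control libraries 2 and 3 and sulodexide library 2 (0.0618 to 0.0757).

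The levels of the 10 genes were also compared with each other, per length. The deposited FPKM values divide by the summed length of all annotated exons of a gene, with overlapping exons counted more than once, in 67.5% of the 14696 genes whose length was worked out from counts and FPKM (within 1 base). For Cxcl10 this length was 4765 bases and the union of its exons 2252, so its deposited FPKM was lower by 2.12-fold. FPKM was therefore recomputed with the exon union of GENCODE M21. On that scale the control group had Cxcl12 first at 31.9 ± 3.36 FPKM (SD, n = 3), then Ccl9 at 18 ± 2.81 and Cxcl1 at 6.88 ± 6.36. Cxcl12 and Ccl9 did not overlap, nor did Ccl9 and Cxcl1, whose ranges were 14.8 to 20.2 and 3.21 to 14.2 FPKM.

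Below these stood Ccl6 at 3.48, Cxcl9 at 3.2, Cxcl16 at 2.33, Cxcl13 at 2.08, Cxcl10 at 1.72, Ccl24 at 1.15 and Cxcl14 at 0.6 FPKM, and each overlapped with its neighbour in this order, Cxcl1 and Ccl6 included. With deposited values the order of ranks 4 to 9 differed, with Cxcl10 below Ccl24. In the vehicle group Cxcl12 (17 ± 1.99 FPKM) and Ccl9 (15.7 ± 2.62) overlapped, and Cxcl14 was at 5.28 ± 1.33. In the sulodexide group Cxcl1 was first at 59.4 ± 56.4 FPKM with 20.1 to 124 over its libraries, above the 13.5 to 17.7 of Cxcl12.

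**Figure D4:**
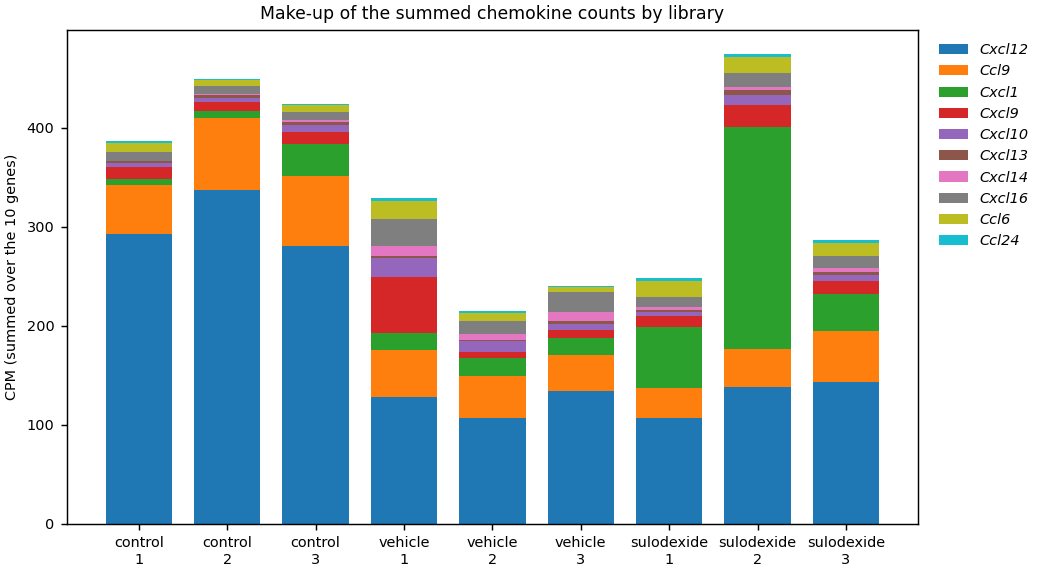
CPM of the 10 chemokine genes stacked for each of the 9 libraries, from 0. Cxcl12 made up 66.3% to 75.8% of the sum in control and 29.1% to 55.8% in the 6 TAA libraries, and Cxcl1 made up 47.4% in sulodexide library 2.

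The sum of the 10 genes was 386 to 450 CPM in control, 215 to 329 with vehicle and 248 to 475 with sulodexide. These are read counts, so long transcripts weigh more. Cxcl12 made up 38.9% to 55.8% of the sum with vehicle. It made up 29.1% in sulodexide library 2, while sulodexide libraries 1 and 3 lay within the vehicle range. The share of Cxcl1 was 1.59% to 7.66% in control, 5.26% to 8.61% with vehicle and 13.0% to 47.4% with sulodexide. Cxcl9 made up 17.2% of vehicle library 1 and at most 3.14% of a control library.

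Single libraries weighed on several of these genes. Vehicle library 1 was the highest of its group for 7 of the 10 genes and the highest of all 9 libraries for 6 of them. It was the highest vehicle library in the markers of Kupffer cells, monocytes, neutrophils, eosinophils, T and NK cells, bile duct cells and sinusoidal endothelium. It was not the highest in those of hepatocytes, stellate cells or mesothelial cells. Sulodexide library 2 was the highest of its group for 6 genes. The groups did not overlap for 4 of the 10 genes with TAA and vehicle against control (56.8% of all tested genes), for 2 with sulodexide against vehicle (24.2%) and for 6 with sulodexide against control (42.0%).

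**Figure D5:**
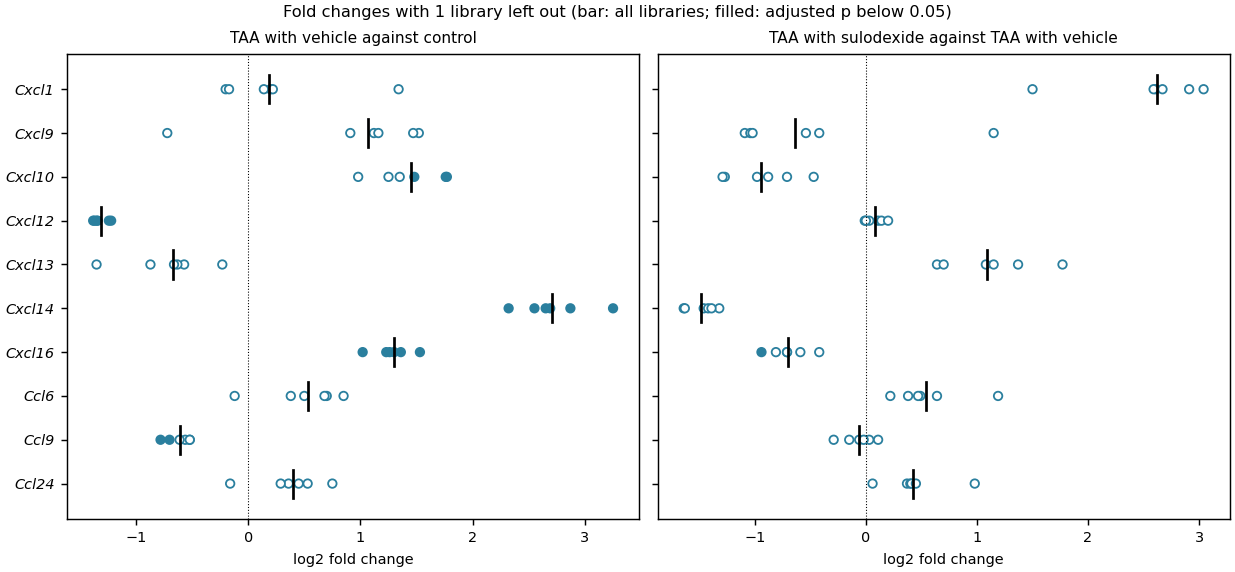
Log2 fold change of each chemokine gene when 1 library of the groups compared was left out (circles, filled where the adjusted p was below 0.05), with a bar at the value from all libraries, for TAA with vehicle against control and for sulodexide against vehicle. Cxcl12, Cxcl14 and Cxcl16 kept their sign and an adjusted p below 0.05 with TAA and vehicle, while Cxcl9, Ccl6 and Ccl24 crossed 0 without vehicle library 1.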

How the data were processed

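Gene expression in mouse liver was measured by RNA sequencing of mRNA libraries in 3 groups of 3. The authors deposited whole-number counts per gene and FPKM values for the 9 libraries in a single table. StringTie 1.3.0, HISAT2 2.0.4 and the genome builds GRCm38.p4 and mm10 are named, per the submitters' processing notes, without a role. Which program counted reads, and with which strand setting, is not given in the sources used here. For genes of at least 10 counts, deposited FPKM differed by at most 0.0336% from count over length and library total.

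The 10 chemokine genes and all gene lists were chosen with earlier results of these data known. Counts were analysed in R 4.3.3 with edgeR 4.0.16: genes kept by filterByExpr (minimum count 10, 3 libraries), TMM scaling, 1 robust quasi-likelihood fit over all 9 libraries without a block, and Benjamini-Hochberg adjustment over 13701 genes with a threshold of 0.05. The script was tested on simulated counts. Alternatives were DESeq2 1.42.0, RLE factors, total counts, limma 3.58.1 on log2(FPKM + 0.1), no filter, the 2 groups alone, a replicate block, and each library left out. FPKM with the exon union of GENCODE M21 was added after seeing the data. Likeness used log2 CPM (prior count 2) of genes of at least 5 CPM on average.

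Named were all 10 genes, their receptors, up to 4 genes of each other pathway list in a comparison by the smallest p among those that passed, and the 3 nearest genes of each chemokine. Promoters are the 250 bases before the RefSeq start (GRCm38.p6), matched by symbol for 8 of the 10 genes and not for Cxcl16 and Ccl24. The motifs were chosen with the sequences in view. Counts over the lymphotoxin list and sums of 1 marker list are not reported here. Counting intervals are exact (Clopper-Pearson) at 95% and cover counting error only.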

Additional observations from a re-analysis of the deposited data

How the results depend on the processing

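Over 387 combinations of a chemokine gene, a comparison and an alternative, 332 kept the direction and the side of the threshold, 28 lost a call, 16 gained one and 11 changed sign. Cxcl12, Cxcl14 and Cxcl16 passed under every alternative with TAA and vehicle against control, and Cxcl12 also with sulodexide against control. None of the sign changes concerned a call. With a library left out, the log2 fold change with TAA and vehicle ran from -0.2 to 1.34 for Cxcl1 (negative without control library 1, and -0.17 without control library 2). It ran from -0.72 to 1.52 for Cxcl9, from -0.12 to 0.85 for Ccl6 and from -0.16 to 0.75 for Ccl24, each negative without vehicle library 1. Between sulodexide and vehicle it ran from -1.09 to 1.15 for Cxcl9 (positive without vehicle library 1) and from -0.29 to 0.11 for Ccl9 (positive without sulodexide library 1, and 0.03 without vehicle library 1). For Cxcl12 it ran from -0.01 (without vehicle library 2) to 0.2, and was -0.06 with total counts and -0.07 with limma on FPKM.

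With TAA and vehicle, the count of lower chemokine genes was 1 with total counts and with limma, and 1 to 2 with a library left out. Between sulodexide and vehicle, all genes changed came to 1092 with DESeq2, 386 with only these groups fitted and 140 to 859 with a library left out, beside 658. The chemokine genes called there were 1 higher with DESeq2, and 0 to 2 lower with a library left out. Between sulodexide and control, higher chemokine genes came to 4 with total counts, 3 with DESeq2, 4 with limma, 3 with only these groups fitted and 0 to 2 with a library left out, and lower ones to 1 with total counts, with limma and with only these groups, and 1 to 2 with a library left out. All genes changed in that comparison came to 2033 to 2963 with a library left out, beside 3101. Of all tested genes, 3315 were higher there with total counts and 3187 with limma, beside 1537 in the main fit. Fewer samples entered the fits with a library left out. The cause of the other shifts was not tested.

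Replicate numbers did not pair the libraries: over 9 pairs with the same number, correlations of deviations from the group means were -0.07 to 0.142, 2 of them above 0.1, and 3 libraries correlated best with their own number. With the replicate block the higher chemokine genes were 2 between sulodexide and control, where Ccl6 passed (edgeR adjusted p = 0.031), and Cxcl10 missed the threshold with TAA and vehicle (edgeR adjusted p = 0.0635). All genes changed came to 5766, 649 and 2984 with the block.

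Low counts limit Cxcl13, Cxcl14 and Ccl24, which had 7 to 191 counts in a library, and the receptors. Outlying single libraries were not tested, since each group held 3.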

Other observations

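The length behind the deposited FPKM was set against annotation for 14696 genes. Where the summed length of distinct exons and the exon union differed, in 12647 genes, 8299 matched the sum and 38 the union within 1 base. Among the chemokine genes the ratio of the deposited length to the union was highest for Cxcl10, at 2.12, and 1.51 for Cxcl1 and 1.58 for Cxcl12.

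Ccl25, the chemokine of gut-homing T cells, was higher with sulodexide than in control. Its gene overlaps Elavl1 in the annotation, so its counts are uncertain. It had 3.2, 2.76 and 3.67 CPM in control, 3.71, 4.42 and 3.95 CPM with vehicle and 5.63, 4.24 and 7.24 CPM with sulodexide, a log2 fold change of 0.82 against control (SE 0.25, edgeR adjusted p = 0.0335). It missed the threshold without each of 5 libraries in turn, and without control library 2 the adjusted p was 0.12.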
